A study of Homo sapiens with 2 samples.

Results

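The cytosolic chaperonin CCT, also called TRiC, is described here through the 9 genes that encode its subunits in HL-60 cells, a line from a human promyelocytic leukaemia. The genes were TCP1, CCT2, CCT3, CCT4, CCT5, CCT6A, CCT6B, CCT7 and CCT8, chosen by name from the 18404 genes that had a probe set annotated to them alone, and each of the 9 was measured by 1 probe set. The samples were 2 Affymetrix Human Gene ST arrays, labelled replicates 1 and 2 of wild-type HL-60, grown in medium with serum, with no treatment or second genotype named. They form 1 group, so no test between conditions exists. Whether the replicates are separate cultures is not stated, and the spread between them may be technical. All signals are values after RMA, read as log2 since the base is not stated; RMA is an array method that corrects background, equalises the distributions of the arrays and summarises the probes of a probe set.

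CCT is a barrel of a pair of stacked rings, each built from 8 related but different subunits, that opens to take up an unfolded protein and closes over it as ATP is used. Actin and tubulin are its best known clients, and proteins with WD40 repeats, such as the cell cycle activator CDC20 and the beta subunits of G proteins, are folded by it as well. Prefoldin hands unfolded actin and tubulin to CCT, and phosducin-like proteins bind CCT with their clients. CCT6B is a paralogue of CCT6A known mainly from the testis.

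On both arrays the 8 widely used subunit genes lay far above background, and the testis paralogue lay at its edge. A signal was called above background where it exceeded the 95th percentile of 359 olfactory receptor genes, which was 2.98 on replicate 1 and 2.88 on replicate 2. A stricter limit, the second threshold, was the 95th percentile of 115 keratin-associated protein, bitter taste receptor and beta-defensin genes, 5.41 on replicate 1 and 5.23 on replicate 2. Of the 9 CCT genes, 8 exceeded the olfactory threshold on both arrays, against 55.8% of all named genes. The same 8 genes exceeded the second threshold on both arrays, against 17.0% of all named genes. The median signal was 7.65 over the 9 CCT genes and 3.33 over all named genes.

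**Figure D1:**
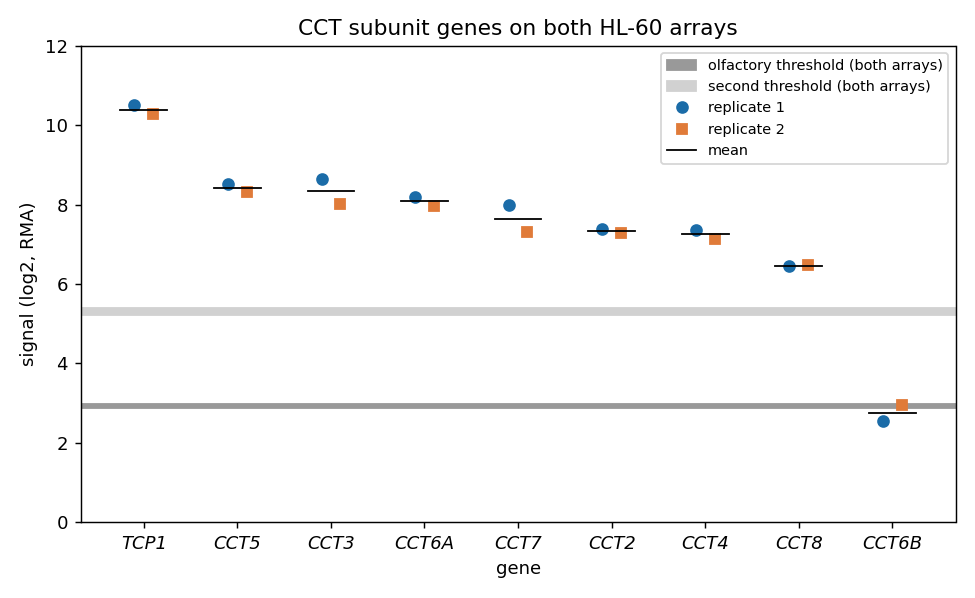
Signal (log2, RMA) of each CCT gene on replicate 1 (circles) and replicate 2 (squares), with the mean of both as a line; the bands span the olfactory and second thresholds of the arrays. TCP1 lies highest at 10.51 and 10.28, the next 7 genes lie between 6.44 and 8.66 above both bands, and CCT6B lies at the lower band.

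The listed markers of the labelled cell line exceeded background, AZU1 only narrowly. All 9 promyelocytic and progenitor genes on the list (MPO, CTSG, PRTN3, ELANE, AZU1, MS4A3, SRGN, MYB and MYC) lay above the olfactory threshold on both arrays, against 55.8% of all named genes. On both arrays 6 of them lay above the second, against 17.0%. AZU1 (3.01 on replicate 1 and 3.19 on replicate 2) and ELANE (4.47 and 4.71) exceeded the second threshold on neither array. MS4A3 (5.98 and 4.88) exceeded it on replicate 1 only. Of 8 measured markers of T cells (CD3E and CD3D), B cells (MS4A1), erythroid cells (HBB and ALAS2), monocytes (CD14), epithelium (EPCAM) and fibroblasts (COL1A2), 0 exceeded the olfactory threshold on both arrays. ALAS2 exceeded it on replicate 2 only (2.70 on replicate 1 and 3.14 on replicate 2), and the other 7 on neither. The number of arrays limits the precision of every value. Between the arrays, all named genes differed with an SD of 0.39, or 0.28 for a single array. A signal also depends on the probes of its probe set, so the order of signals given below is not an order of transcript or protein amounts, and nothing in it bears on the equal numbers in which subunits enter a ring.

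In yeast, the subunits on one side of the ring, among them CCT5, CCT4, CCT2 and TCP1, bind ATP most readily. TCP1, the alpha subunit and the first to be found, in the mouse t-complex, read 10.51 on replicate 1 and 10.28 on replicate 2 (10.40 ± 0.16, SD, n = 2). Its signal exceeded that of 99.95% of all named genes on replicate 1 and of 99.91% on replicate 2. CCT5, the epsilon subunit, which is mutated in a hereditary sensory neuropathy with spasticity, read 8.51 on replicate 1 and 8.31 on replicate 2 (8.41 ± 0.14, SD, n = 2). The beta subunit gene CCT2 read 7.40 on replicate 1 and 7.28 on replicate 2 (7.34 ± 0.08, SD, n = 2). These 3 genes lay well above the second threshold on both arrays, the lowest of them, CCT2, by 1.99 and 2.05 on replicates 1 and 2. The delta subunit gene CCT4, whose product can form rings by itself when expressed alone, read 7.36 on replicate 1 and 7.14 on replicate 2 (7.25 ± 0.16, SD, n = 2). It lay below CCT2 on both arrays, with a gap of means of 0.08, less than the 0.28 found for a single array over all genes.

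The other four subunits complete the ring, and CCT3, CCT6 and CCT8 are those that bind ATP least in yeast. The gamma subunit gene CCT3 read 8.66 on replicate 1 and 8.03 on replicate 2 (8.34 ± 0.45, SD, n = 2). The zeta subunit gene CCT6A read 8.19 on replicate 1 and 7.97 on replicate 2 (8.08 ± 0.16, SD, n = 2). The eta subunit gene CCT7 read 7.99 on replicate 1 and 7.31 on replicate 2 (7.65 ± 0.48, SD, n = 2). CCT3 and CCT7 were the CCT genes with the widest spread between the arrays. The theta subunit gene CCT8 had the lowest signal of the 8, at 6.44 on replicate 1 and 6.47 on replicate 2 (6.46 ± 0.02, SD, n = 2). It still exceeded the second threshold by 1.03 on replicate 1 and by 1.24 on replicate 2. An SD as small as that of CCT8 from 2 arrays does not show a smaller error than the 0.28 found over all genes.

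By mean signal the order was TCP1, CCT5, CCT3, CCT6A, CCT7, CCT2, CCT4, CCT8 and CCT6B. Within each array 7 of the 8 steps ran the same way, and CCT3 lay above CCT5 on replicate 1 and below it on replicate 2. In 3 steps both values of the higher gene also lay above both values of the next: TCP1 lay above CCT5 by 1.99, CCT4 above CCT8 by 0.80 and CCT8 above CCT6B by 3.71. Across the arrays the values of neighbours overlapped in the other 5 steps, from CCT5 down to CCT4. Among these, the smallest step was the 0.07 between CCT5 and CCT3 and the widest the 0.44 between CCT6A and CCT7.

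CCT6B had a signal of 2.54 on replicate 1 and of 2.95 on replicate 2 (2.75 ± 0.29, SD, n = 2). It lay 0.44 below the olfactory threshold on replicate 1, which 58.6% of all named genes exceeded, and 0.07 above it on replicate 2, where 60.5% did. In consequence, a call from replicate 2 alone would raise the count of CCT genes above background to 9. Among all named genes, 4.73% exceeded this threshold on replicate 2 only. Of the olfactory receptor genes, 81.3% had a lower signal than CCT6B on replicate 1 and 95.5% on replicate 2. CCT6B was thus within the range of the background genes on both arrays, and transcripts below what the array resolves cannot be judged. Germ cell markers were also looked at. Of 5 (DDX4, DAZL, TNP1, PRM1 and PRM2), 0 passed the olfactory threshold on both arrays, and TNP1, which encodes a transition protein of spermatids, did so on replicate 1 only (3.24 on replicate 1 and 2.23 on replicate 2).

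Chaperone genes enriched in the testis gave a mixed picture beside CCT6B. Of 10 such genes, 2 passed the olfactory limit on both arrays and 0 the second, against 55.8% and 17.0% of all named genes. The list median was 2.45. CLGN, a membrane chaperone of the endoplasmic reticulum needed for sperm proteins in the mouse, was the highest, at 4.98 on replicate 1 and 5.87 on replicate 2. It exceeded the second threshold on replicate 2 only. CCT8L2, an intronless relative of CCT8, read 4.74 on replicate 1 and 4.24 on replicate 2 and was the other one to pass. DNAJC5B, a member of the DNAJ family, was the lowest at 1.71 on replicate 1 and 1.44 on replicate 2. The rest of the list stayed below the threshold on both arrays.

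Most CCT genes were higher on replicate 1 than on replicate 2. This held for 7 of the 9, against 52.6% of all named genes and 52.7% of those above the second threshold. Among all named genes, 962 had the same value on both arrays and count here as not higher. The median difference, replicate 1 minus replicate 2, was 0.22 over the CCT genes, against 0.04 over all named genes and 0.02 over those above the second threshold. The shift was not particular to CCT. Its size was matched by the prefoldin genes (0.26), the HSP70 and HSP90 system (0.23) and the testis-enriched chaperones (0.27), the last mostly at background. Other lists went the other way, such as the tubulin cofactors (-0.18) and the prefoldin-like genes (-0.33). CCT7 differed by 0.68, or 1.60-fold, and CCT3 by 0.63, or 1.55-fold. TCP1 differed by 0.23 as deposited, by 0.44 after quantile normalization and by 0.35 after loess. A further 4 genes differed in the same direction: CCT6A and CCT4 by 0.22 each, CCT5 by 0.20 and CCT2 by 0.12. CCT8 (-0.03) and CCT6B (-0.41) went the other way, CCT6B among signals at background. No CCT gene passed a difference of 1, which 1.96% of all named genes did in either direction.

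Taken gene by gene, the differences lay within the ordinary spread between these arrays. The central 95% of the 3137 genes above the second threshold ran from -0.71 to 0.81, and all 9 CCT genes fell inside it. CCT6B is not itself among those 3137 genes. A range for single genes does not tell whether the CCT genes moved together as a set, which was not tested. Differences larger in size than that of CCT7 were found in 7.43% of those genes, and differences larger than that of CCT3 in 9.24%. A difference of more than 0.5 with replicate 1 higher was found in 9.85% of those genes and in 2 CCT genes. The promyelocytic markers were also higher on replicate 1 in 6 of 9 cases, with a median difference of 0.41, and their part in the CCT result was not tested. With 1 array on each side, the shift of the CCT genes has no replicate check.

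**Figure D2:**
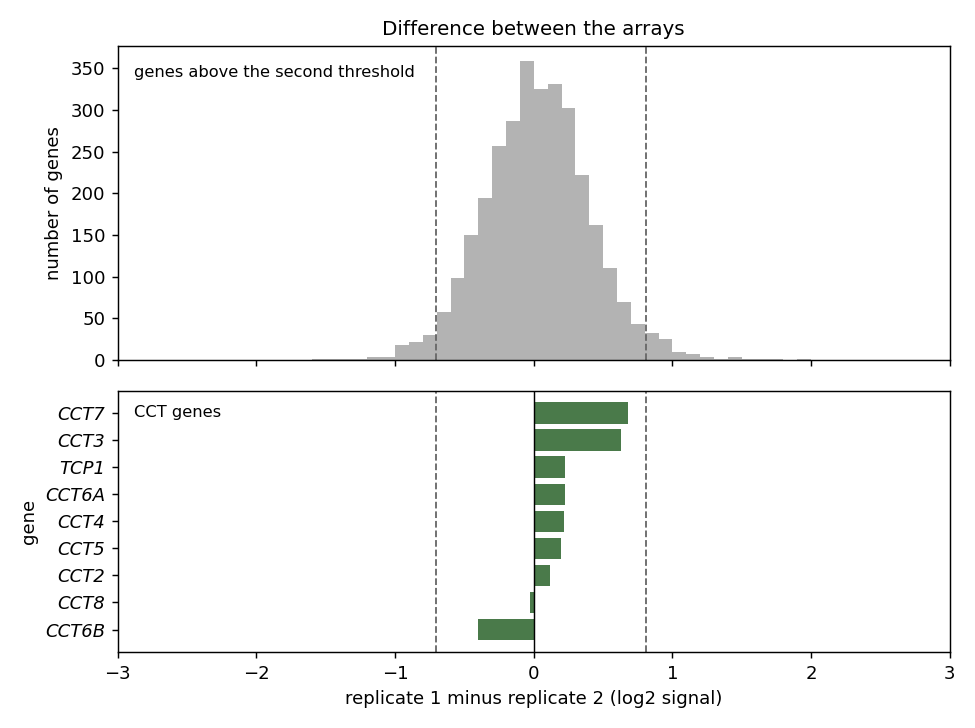
Upper panel: number of genes above the second threshold by difference between the arrays (replicate 1 minus replicate 2, log2 signal, bins of 0.1). Lower panel: the same difference for each CCT gene, from 0.68 for CCT7 to -0.41 for CCT6B; the dashed lines at -0.71 and 0.81 hold the central 95% of the genes above, and all 9 bars end inside them.

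Genes that work with CCT passed the thresholds to different degrees. Each count below is to be read beside all named genes, of which 55.8% passed the olfactory limit on both arrays and 17.0% the second. All 6 prefoldin genes passed the olfactory limit on both arrays and 5 the second, with a median signal of 6.13. PFDN5 read 8.45 on replicate 1 and 8.16 on replicate 2, PFDN2 6.93 and 6.70, and PFDN6 6.46 and 5.90. VBP1, which encodes prefoldin subunit 3, read 5.95 on replicate 1 and 6.20 on replicate 2, and PFDN1 5.48 and 5.64. PFDN4 was the exception below the second threshold (3.72 on replicate 1 and 3.34 on replicate 2). Of 3 prefoldin-like genes, whose products form a related complex, URI1 (6.32 and 5.72 on replicates 1 and 2) and UXT (5.88 and 6.21) exceeded both thresholds, and PDRG1 (3.17 and 3.80) the olfactory one only.

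Phosducin-like genes had lower signals than the prefoldin genes, with a median of 3.27, near the 3.33 of all named genes. Of 5 on the list, 3 passed the olfactory limit on both arrays and 0 the second, against 55.8% and 17.0% of all named genes. All 5 were higher on replicate 1 (median difference 0.46), against 52.6% of all named genes. PDCL3 read 5.50 on replicate 1 and 4.98 on replicate 2, so it passed the second threshold on replicate 1 only. TXNDC9 read 5.20 and 4.82, and PDCL, which assists the folding of G protein beta subunits, 3.50 and 3.04. The testis gene PDCL2 (1.82 on replicate 1 and 1.55 on replicate 2) and the retinal gene PDC (2.36 and 1.88) did not exceed background on either array. Of the chaperonin-like genes related to CCT by sequence, MKKS (3.75 and 3.76 on replicates 1 and 2), BBS10 (3.45 ± 0.64, SD, n = 2) and CCT8L2 passed the olfactory threshold on both arrays, and BBS12 (1.90 and 1.72) on neither. MKKS, BBS10 and BBS12 assist the assembly of the Bardet-Biedl syndrome protein complex of cilia. The mitochondrial chaperonin genes HSPD1 (9.22 on replicate 1 and 9.16 on replicate 2) and HSPE1 (7.37 and 5.70), which belong to the other chaperonin group, both exceeded the second threshold.

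Of 19 measured actin and tubulin genes, clients of CCT, 14 passed the olfactory limit on both arrays and 9 the second, with a median signal of 4.57. TUBB was the highest, at 10.22 on replicate 1 and 9.73 on replicate 2, and the cardiac actin gene ACTC1 the lowest, at 1.88 on replicate 1 and 1.45 on replicate 2. Actin and tubulin genes are near-identical in places and their probes can share targets, so single members are uncertain. Of these 19 genes, 15 were higher on replicate 1, against 52.6% of all named genes, with a median difference of 0.24. The 19 include genes at background, and a link to the difference of the CCT genes was not tested. All 12 other clients exceeded the olfactory threshold and 5 the second, with a median signal of 5.17. The G protein beta subunit gene GNB1 was the highest (8.24 on replicate 1 and 8.23 on replicate 2), and WRAP53, whose product guides telomerase RNA to Cajal bodies, the lowest (3.55 and 3.62). The median difference of these 12 was -0.06, with 5 higher on replicate 1.

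The tubulin cofactors act on tubulin after its release from CCT. Of 6 measured, 5 passed the olfactory limit on both arrays and 3 the second. TBCA, averaged over 2 probe sets, read 6.71 on replicate 1 and 6.91 on replicate 2, TBCB 6.03 and 5.87, and TBCE 5.91 and 5.57. TBCD (4.26 on replicate 1 and 4.41 on replicate 2) and TBCEL (3.43 and 3.88) exceeded the olfactory threshold only, and TBCC did so on replicate 2 only (2.73 on replicate 1 and 3.52 on replicate 2).

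The measured genes of the HSP70 and HSP90 system and the nascent chain factors were above background throughout. All 10 measured genes of the HSP70 and HSP90 system passed the olfactory limit on both arrays and 8 the second, with a median of 7.04. HSPA8, the constitutive HSP70, was the highest (9.99 on replicate 1 and 10.17 on replicate 2), and its cochaperone gene DNAJB1 the lowest (5.08 and 4.28). Of 4 nascent chain factors, NACA (9.83 and 10.08 on replicates 1 and 2), DNAJC2 (6.99 and 7.09) and BTF3 (6.64 and 6.47) exceeded both thresholds. HSPA14 (5.01 and 4.90) exceeded the olfactory threshold only. HSF1, the heat shock transcription factor that is known to act on CCT genes in human cells, read 5.10 on replicate 1 and 5.22 on replicate 2, below the second threshold on both. The CCT genes' count of 8 of 9 above the second threshold stands beside 5 of 6 for prefoldin, 8 of 10 for the HSP70 and HSP90 system and 0 of 5 for the phosducin-like genes, and these shares were not tested against each other.

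**Figure D3:**
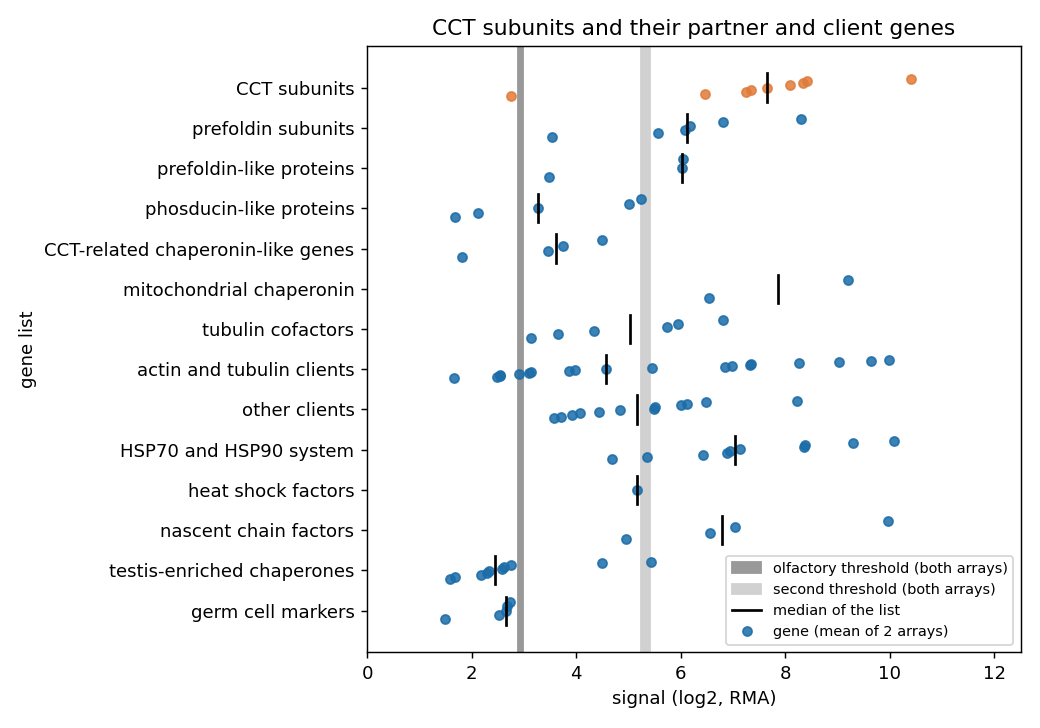
Mean signal of 2 arrays (log2, RMA) for each gene of the CCT subunits and 13 other lists, with the list's median as a black line and the 2 thresholds as bands. The CCT subunits except CCT6B lie right of both bands, as do all but 1 prefoldin gene, while the testis-enriched chaperones and germ cell markers lie mostly left of the olfactory band.

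Some CCT genes share their start region with a gene on the opposite strand. In the RefSeq promoter table (GRCh38.p14), 8 of the 9 CCT genes had a window of 300 bases, from 250 before the annotated start to 50 after it, and CCT6A was not among them. A protein-coding gene starting on the opposite strand within 1000 bases upstream was found for 4 of the 8, against 12.3% of 15843 protein-coding genes. Only genes with a promoter window could be found, so a neighbour without one would be missed. This property was chosen after the signals had been seen, and 4 genes are too few for more than a description. The nearest starts lay 210 bases apart for TCP1 and MRPL18, 234 for CCT3 and TSACC, 54 for CCT4 and COMMD1 and 80 for CCT6B and ZNF830. The windows of these 4 genes are shown because each holds both the start of the CCT gene and that of its neighbour. Capitals mark matches, on either strand, to CCAAT (the CCAAT box), GGGCGG (GC box), CGGAAG (ETS core), GAANNTTC (heat shock element core) or TGACGT (CRE core), and no match overlaps another in these windows. Each reads 5′ to 3′ on the strand of the CCT gene.
TCP1 (chr6:159789553-159789852, minus strand): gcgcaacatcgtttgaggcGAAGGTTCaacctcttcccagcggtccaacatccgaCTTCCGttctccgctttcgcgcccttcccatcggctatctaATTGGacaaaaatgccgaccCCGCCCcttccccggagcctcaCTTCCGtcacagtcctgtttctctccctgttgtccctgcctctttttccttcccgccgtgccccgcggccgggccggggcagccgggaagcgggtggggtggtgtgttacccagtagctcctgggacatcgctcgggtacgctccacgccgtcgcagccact
CCT3 (chr1:156338243-156338542, minus strand): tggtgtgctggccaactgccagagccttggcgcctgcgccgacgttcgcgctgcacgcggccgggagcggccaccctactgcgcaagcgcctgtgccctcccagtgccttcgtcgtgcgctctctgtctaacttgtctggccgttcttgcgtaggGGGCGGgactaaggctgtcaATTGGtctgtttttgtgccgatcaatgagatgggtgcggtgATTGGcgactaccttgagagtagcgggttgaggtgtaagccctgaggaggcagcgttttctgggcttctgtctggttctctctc
CCT4 (chr2:61888622-61888921, minus strand): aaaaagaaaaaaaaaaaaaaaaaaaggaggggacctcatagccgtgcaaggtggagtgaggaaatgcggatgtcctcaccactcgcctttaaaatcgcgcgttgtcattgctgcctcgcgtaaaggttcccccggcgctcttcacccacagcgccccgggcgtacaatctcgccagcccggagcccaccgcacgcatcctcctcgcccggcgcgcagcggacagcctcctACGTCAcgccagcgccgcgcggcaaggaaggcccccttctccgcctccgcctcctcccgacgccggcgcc
CCT6B (chr17:34961411-34961710, minus strand): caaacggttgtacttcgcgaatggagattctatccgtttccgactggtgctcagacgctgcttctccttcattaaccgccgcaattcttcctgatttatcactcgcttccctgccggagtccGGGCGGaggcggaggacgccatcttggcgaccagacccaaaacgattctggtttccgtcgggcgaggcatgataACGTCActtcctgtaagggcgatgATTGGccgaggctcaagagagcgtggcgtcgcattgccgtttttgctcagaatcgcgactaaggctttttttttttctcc

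The neighbours did not follow their CCT gene in all pairs. MRPL18, a mitochondrial ribosomal protein gene, read 7.16 on replicate 1 and 7.14 on replicate 2 and exceeded both thresholds, as TCP1 did. COMMD1, a gene of copper handling and NF-kappaB control, read 6.25 on replicate 1 and 5.89 on replicate 2 and also exceeded both, as CCT4 did. TSACC, which encodes a cochaperone of a testis kinase, read 2.10 on replicate 1 and 1.81 on replicate 2, below background on both arrays, whereas CCT3 exceeded the second threshold on both. The reverse held for CCT6B, whose neighbour ZNF830, a zinc finger gene, exceeded the olfactory threshold on both arrays (5.07 on replicate 1 and 5.39 on replicate 2). In 2 of the 4 pairs, therefore, both genes were above the second threshold, and in the other two only 1 gene was above background on both arrays.

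**Figure D4:**
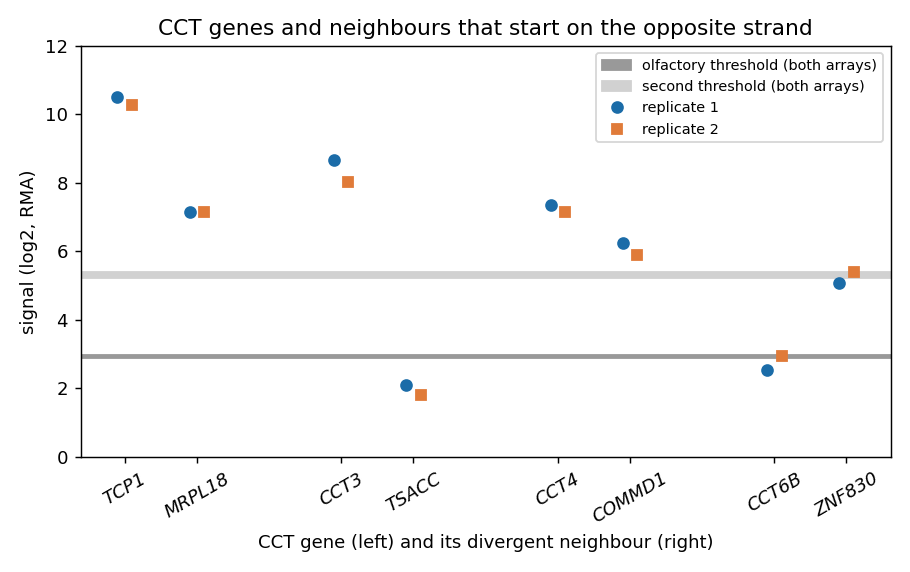
Signal (log2, RMA) on replicate 1 (circles) and replicate 2 (squares) of 4 CCT genes and the gene that starts on the opposite strand beside each, with bands for the thresholds. TCP1 with MRPL18 and CCT4 with COMMD1 lie above both bands, CCT3 lies at 8.66 and 8.03 with TSACC at 2.10 and 1.81, and ZNF830 lies above CCT6B.

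The promoter windows of the CCT genes held at least the median number of CpG, the dinucleotide that DNA methylation acts on. They had 22 to 34 CpG each, against a median of 22 over 15843 promoters. CCT4 had 34, TCP1 and CCT6B 28 each, CCT5 and CCT8 25 each, CCT2 and CCT3 23 each and CCT7 22. CCT6B, with a signal at background, thus had as many CpG as TCP1, and methylation itself was not measured in these samples. The CCT5 window starts from a transcript 616 bases downstream of the gene's outermost start, and CCT2 and CCT4 had 2 windows each, of which the one nearest the outermost start was used.

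Short motifs were searched on both strands in the same windows. CCAAT was found in 5 of the 8 CCT windows (TCP1, CCT2, CCT3, CCT6B and CCT8), against 36.4% of all promoters. GGGCGG was found in 6, against 58.3%, and CGGAAG in 5 (TCP1, CCT2, CCT5, CCT7 and CCT8), against 25.5%. The heat shock element core GAANNTTC was found in 1 window, that of TCP1, against 5.56% of all promoters, and TGACGT in CCT4 and CCT6B, against 9.66%. CACGTG, the E-box of MYC and related factors, was found in 0 of the 8 windows, against 8.82%, and TATAAA in 0, against 9.75%. A match is a run of letters and not a shown binding site. The window of CCT6B carried the CCAAT box, the GC box and the CRE core, each of them also found in the window of at least 1 CCT gene above the second threshold.

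Further neighbours and copies bear on how single values are read. Within the span of TCP1 lie the small nucleolar RNA genes SNORA20 (1.92 on replicate 1 and 1.45 on replicate 2) and SNORA29 (2.71 and 2.33). SNORA15, within the span of CCT6A, had a mean of 1.54 ± 0.06 (SD, n = 2). All 3 were below the olfactory threshold on both arrays, while their host genes exceeded the second threshold. How well these arrays measure such small RNAs was not tested, so the low signals do not show that the RNAs are absent. ACAT2, an acetyl-CoA acetyltransferase gene that overlaps TCP1, read 8.03 on replicate 1 and 7.80 on replicate 2, and SUMF2, next to CCT6A, 5.34 and 5.74. PSPH, a serine synthesis enzyme gene on the other side of CCT6A, read 2.76 on replicate 1 and 4.27 on replicate 2, a difference of -1.51 where CCT6A differed by 0.22. USP16, next to CCT8, read 6.08 and 5.90 and exceeded both thresholds. PRADC1 (3.70 and 3.10) and FBXO41 (3.37 and 3.47), on either side of CCT7, and ATPSCKMT (3.30 and 3.60), beside CCT5, exceeded the olfactory threshold only. CMBL, LRRC10, VHLL, RHBG and MAP3K7CL, the measured neighbours of CCT5, CCT2, CCT3 and CCT8 not yet given, did not exceed it on either array.

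RefSeq lists 17 pseudogenes named after CCT genes: 5 of the CCT6 family, 3 each of TCP1 and CCT5, 2 each of CCT4 and CCT7, 1 each of CCT3 and CCT8 and 0 of CCT2. No pseudogene among them had a probe set of its own name, and of the 1388 probe sets annotated to more than 1 symbol, 0 named a CCT gene. Probe sequences were not used here, so whether probes for CCT genes also match pseudogene copies was not tested. The counts above and the values of CCT genes with copies are uncertain to that extent.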

How the data were processed

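Total RNA of 2 wild-type HL-60 samples was amplified, biotin-labelled and hybridised to Affymetrix Human Gene ST arrays, per the labels' protocols. For each probe set the authors deposited a signal made with RMA, per the submitters' processing notes. The notes give no log base, and the deposited values were read as log2, RMA's own base; the software is not given in the sources used here. RMA equalises the arrays, so a global change in RNA content cannot be seen. Of 32321 probe sets, 19158 carried 1 gene symbol, 1388 several and 11775 were not listed. Symbols were updated through Entrez IDs (19128 matched the RefSeq table), and the 637 genes with several probe sets were averaged.

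Members, lists, thresholds and motifs were chosen with earlier results of these data known. Each CCT gene is named, as are all genes of lists with 8 or fewer measured genes, the highest and lowest of longer lists, and the nearest measured gene on either side of each CCT gene; overlapping genes and opposite-strand neighbours were added after values were seen. Some list members are not reported here. No p-values were computed. Alternatives were each array alone, the highest probe set, quantile normalization, loess (span 0.3) and other thresholds. The calculations were tested on simulated data with 200 shifted genes. The error allowed in that test was wider than its smallest shift, so shifts as small as the CCT median were not checked. The calculations used Python 3.11.15, numpy 2.4.6, pandas 2.3.3, statsmodels 0.14.6 and matplotlib 3.10.9.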

Additional observations from a re-analysis of the deposited data

How the results depend on the processing

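No paired analysis was possible because both arrays belong to 1 group. The number of CCT genes above the olfactory threshold on both arrays stayed at 8 with the 99th percentile, with the second background set as threshold, with the highest probe set per gene, after loess and after quantile normalization. On single arrays it was 8 without replicate 2 and 9 without replicate 1, because CCT6B passed on replicate 2. The number above the second threshold was 8 under every alternative run, its 99th percentile included. The median signal ranged from 7.31 without replicate 1 to 7.99 without replicate 2. The median difference between the arrays was 0.22 as deposited, 0.19 with quantile normalization and 0.25 with loess, and 7 of 9 CCT genes were higher on replicate 1 under all 3. The difference of TCP1 was 0.23 as deposited, 0.44 with quantile normalization and 0.35 with loess. On single arrays CCT7 ranged from 7.31 to 7.99 and CCT3 from 8.03 to 8.66, the widest ranges among the CCT genes. The largest move of a CCT gene's mean level under quantile normalization was 0.017. Loess between 2 arrays keeps each mean by construction, and each CCT gene has 1 probe set, so neither loess nor the rule for several probe sets could change a level. Another background correction and a slide block need scanner files and were not run. Signal over background limits what can be said of CCT6B alone among the CCT genes.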
